A study of Mus musculus with 12 samples.

Results

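The transcripts of 10 genes that build, guide or limit telomerase were followed across 4 genotypes of whole mouse embryos at E10.5: Tert, Dkc1, Nop10, Nhp2, Gar1 and Wrap53 of the telomerase particle, Ctc1, Stn1 and Ten1 of the CST complex, and the helicase gene Rtel1. A gene was included if the platform annotation gave its symbol, and no other, to a probe set, and its brightest probe set, by mean over the 12 arrays, represented it. All 10 genes were found, with 23 probe sets, among 18193 genes and 45101 probe sets. The levels are log2 values made by the authors with RMA (robust multi-array average), in which a difference of 1 is a doubling. The 12 samples were 3 embryos each of wild type (wt), Acd acd/acd (acd), p53-/- (p53) and Acd acd/acd, p53-/- (double). No group carried a treatment. The sources used here give neither the way the alleles were made nor the strain or litters of the embryos. The titles call the replicates biological, and p-values measure the spread between these embryos, pooled over the 4 genotypes. The comparisons ask what homozygous acd changes and how far p53 is needed for it.

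Telomerase copies telomere repeats with the reverse transcriptase Tert and an RNA template, and the template RNA is held and stabilised by dyskerin (Dkc1) with Nop10, Nhp2 and Gar1, the proteins of every H/ACA ribonucleoprotein, which also guide pseudouridylation of ribosomal RNA. Wrap53 (TCAB1) brings the particle to Cajal bodies and telomeres, CST ends elongation and lets DNA polymerase alpha fill in the complementary strand, and Rtel1 unwinds telomeric loops and G-quadruplexes. Acd encodes TPP1, the shelterin protein that recruits telomerase to chromosome ends and, with Pot1, binds CST.

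Among the H/ACA genes Dkc1 and Gar1 had the highest Pearson correlation of any pair of members over the 12 arrays (0.97). It was 0.53 without double mutant replicates 1 and 2. Nop10 correlated with both below 0 over the 12 arrays (-0.36 and -0.38), but above 0 without those replicates (0.41 and 0.32). The 250 bases before the RefSeq start sites of the 4 H/ACA genes are shown (GRCm38.p6, 5′ to 3′ on the strand of the gene). Capitals mark matches, on either strand, to the E-box CACGTG, the GC box GGGCGG, the Ets core CCGGAAG and the CCAAT box CCAAT. The windows are chrX:75095604-75095853 (+) for Dkc1, chr3:129831397-129831646 (-) for Gar1, chr11:51619523-51619772 (+) for Nhp2 and chr2:112261676-112261925 (+) for Nop10.
Dkc1: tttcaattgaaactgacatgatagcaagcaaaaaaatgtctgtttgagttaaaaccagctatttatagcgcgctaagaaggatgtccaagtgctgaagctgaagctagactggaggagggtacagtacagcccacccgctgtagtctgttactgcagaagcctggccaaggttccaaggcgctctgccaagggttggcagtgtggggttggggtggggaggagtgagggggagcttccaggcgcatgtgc
Gar1: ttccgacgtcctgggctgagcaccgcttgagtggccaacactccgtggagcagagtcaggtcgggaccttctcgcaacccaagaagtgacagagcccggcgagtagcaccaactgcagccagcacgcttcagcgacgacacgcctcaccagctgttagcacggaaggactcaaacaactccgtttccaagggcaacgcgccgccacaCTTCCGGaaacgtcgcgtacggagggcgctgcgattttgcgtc
Nhp2: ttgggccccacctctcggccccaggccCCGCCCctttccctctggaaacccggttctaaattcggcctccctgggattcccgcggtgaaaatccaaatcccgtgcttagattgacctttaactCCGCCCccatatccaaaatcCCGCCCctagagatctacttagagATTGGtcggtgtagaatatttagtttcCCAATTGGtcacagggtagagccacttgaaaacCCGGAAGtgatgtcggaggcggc
Nop10: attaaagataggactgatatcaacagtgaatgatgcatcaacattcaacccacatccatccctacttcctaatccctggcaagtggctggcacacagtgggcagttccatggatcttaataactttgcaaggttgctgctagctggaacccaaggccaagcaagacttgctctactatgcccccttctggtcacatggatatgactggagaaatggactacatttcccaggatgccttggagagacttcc
The Nhp2 window held 3 GC boxes, 3 CCAAT boxes, of which 2 overlap, and 1 Ets core, the Gar1 window held 1 Ets core, and the Dkc1 and Nop10 windows held none of the 4 motifs. Over the 11 windows of the 10 genes, an E-box lay in those of 2 genes (Ctc1 and Wrap53), a GC box in 6, an Ets core in 3 and a CCAAT box in 3. Of 32851 RefSeq windows of the same length, 6.02% held the E-box, 32.7% the GC box, 6.91% the Ets core and 33.8% the CCAAT box. These matches describe letters in a window and no binding was measured.

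Array medians of the deposited values lay between 5.32 and 5.40. Double mutant replicates 1 and 2 differed from the rest: their median correlation with other arrays was 0.972 and 0.987 over 13501 tested genes, and no remaining array was below 0.995. The 10 members had a median SD of 0.06 among wt, 0.07 among acd, 0.08 among p53 and 0.24 among double mutant embryos, where all tested genes gave 0.06, 0.07, 0.10 and 0.21. The SEs, intervals and p-values below use 1 spread per gene pooled over the 4 genotypes. The wider spread of the double mutants therefore also enters those of acd and p53 against wt. The Y-linked transcript Eif2s3y was above a log2 level of 6 in all acd and p53 embryos but in only 1 wt and 1 double mutant embryo (replicate 1 in each). Acd, the gene mutated in the acd and double groups, had means of 8.99 ± 0.01 (wt), 8.91 ± 0.12 (p53), 8.26 ± 0.05 (acd) and 8.36 ± 0.11 (double), each with its SD over 3 arrays. The highest acd or double mutant array read 8.44, under the lowest wt or p53 array at 8.84. Markers of heart, neural tissue, somites, primitive red cells, liver and limb buds passed the low-value filter on these whole-embryo arrays, while none of 4 germ cell markers (Pou5f1, Dppa3, Dazl and Ddx4, at 3.32 to 4.57) did. Germ cells of this age are known for active telomerase.

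No member passed limma's test in any of the 6 comparisons (Benjamini-Hochberg adjusted p of 0.05 over 13501 genes), although all 10 passed the filter on low values. In acd against wt, 0.0148% of all tested genes were called, and the members' differences ran from -0.11 to 0.09, with 0 of 10 at an unadjusted p under 0.05 (1.77% of all genes, 1.13% lower and 0.637% higher). In p53 against wt, 0% of genes were called and the members' differences ran from -0.18 to 0.08, again with 0 of 10 at an unadjusted p under 0.05 (0.726% of all genes, 0.393% lower and 0.333% higher). In both comparisons the arrays of every member overlapped. Groups did not overlap for 9.86% of all genes lower and 7.24% higher in acd against wt, and for 3.36% and 3.42% in p53 against wt. Members below wt numbered 7 of 10 in acd (52.8% of all genes) and 5 of 10 in p53 (51.9%), and the members' medians were -0.03 and -0.00, against -0.01 and -0.00 over all genes. The double mutants gave the larger differences. There 8 of 10 members were lower than in p53, acd and wt embryos alike, while 52%, 52.8% and 53.2% of all genes were, and these 3 comparisons share the double mutant arrays. The members' medians were -0.14, -0.20 and -0.25, against -0.01 over all genes in each. At an unadjusted p under 0.05, 2 members were lower in double against p53 (Dkc1 and Gar1), 2 in double against acd (Dkc1 and Gar1) and 4 in double against wt (Dkc1, Gar1, Stn1 and Rtel1), and none was higher. The shares of all genes lower at that level were 5.67%, 6.27% and 6.41%, and those higher were 5.07%, 6.32% and 4.69%, or 10.7%, 12.6% and 11.1% in either direction. At the adjusted threshold 0.00741%, 0% and 0.0148% of all genes were called. No member had double mutant arrays all above the other group, against 3.29%, 4.41% and 4.96% of all genes. As whole embryos were measured, fewer cells of a type and less RNA per cell cannot be told apart.

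**Figure D1:**
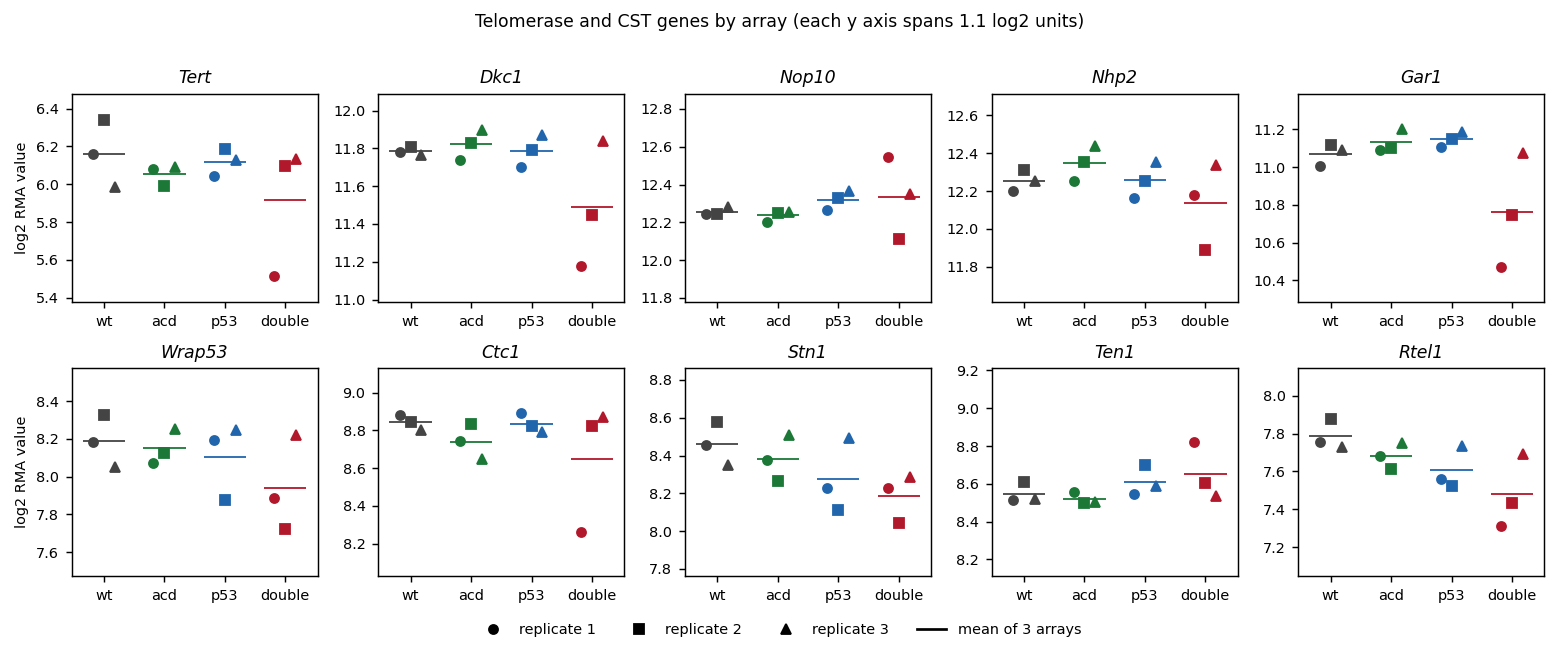
Log2 RMA value (y axis, 1.1 log2 units in every panel) of each member in the 3 arrays of wt, acd, p53 and double mutant embryos (x axis), with symbols for replicates and a line at each mean of 3 arrays. Dkc1, Gar1 and Rtel1 lay low in double mutant replicates 1 and 2. In replicate 3 they read 11.84, 11.07 and 7.69, within the range of the 9 arrays of other genotypes. In that replicate Gar1 was still below every p53 and acd array, and Rtel1 was below every wt array. Levels of different genes cannot be compared, as each is read by its own probes.

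**Figure D2:**
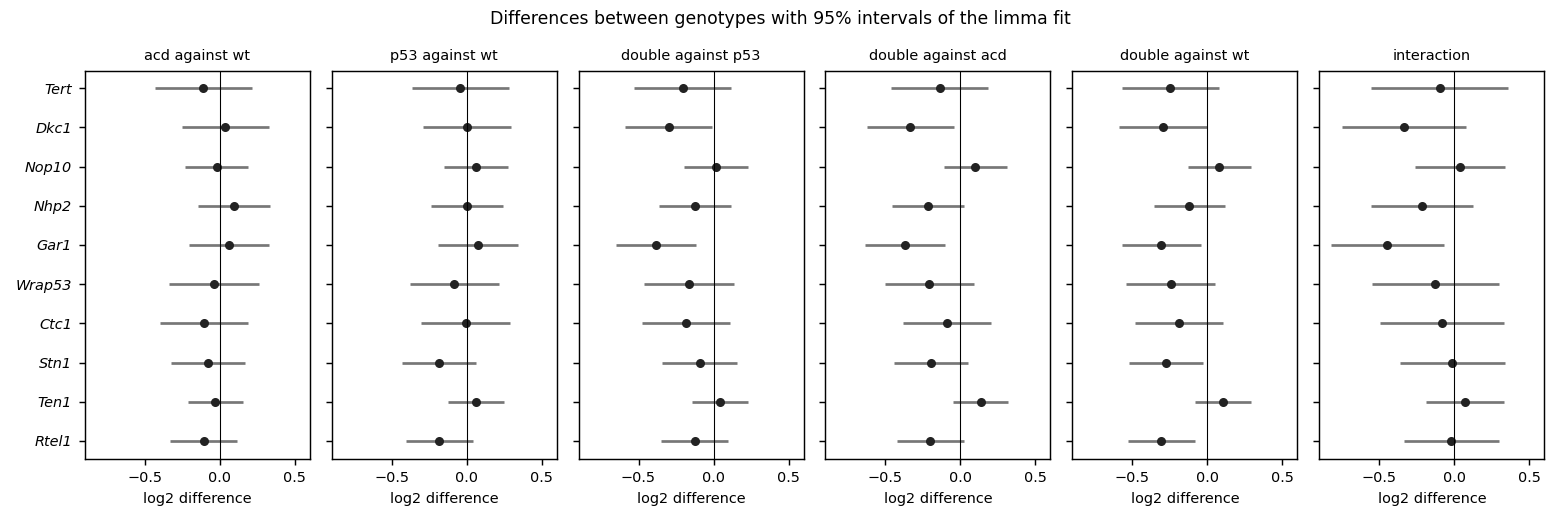
Log2 difference (x axis) of each member (rows) in the 5 comparisons of genotypes and in the interaction, with the 95% interval of the limma fit as a bar. The acd and p53 differences from wt lie between -0.18 and 0.09 with intervals across 0, and the largest double mutant difference is that of Gar1 against p53, at -0.38.

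Tert, the catalytic subunit, was read near the middle of each array. Its probe set lay between the 51.5th and 60.7th percentile of all probe sets, and no call of presence is given per gene, so background can compress its differences. The wt arrays read 6.16, 6.34 and 5.99, the acd arrays 6.08, 5.99 and 6.09, and the p53 arrays 6.04, 6.19 and 6.13. In double mutants Tert read 5.52, 6.10 and 6.13. Replicate 1 was therefore below all other arrays, and replicates 2 and 3 lay inside the range of the other genotypes. The genotype means were ordered wt, p53, acd, double, and the arrays of neighbours in that order overlapped. The difference of acd from wt was -0.11 ± 0.15 (SE), with a 95% interval of -0.43 to 0.22, and was not called, and that of double from wt was -0.25 ± 0.15 (adjusted p = 0.494), or -0.05 without double mutant replicate 1. A second probe set of Tert lay lower on every array, at 4.53 to 5.07, and its difference between double mutants and wt was -0.17. A different embryo was low there: double mutants read 4.88, 4.53 and 4.88, and wt 5.01, 4.92 and 4.89. On this set acd differed from wt by 0.06, the other sign from the set used.

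Dkc1, which encodes the pseudouridine synthase dyskerin and lies on the X chromosome, and Gar1, its partner in the mature particle, were low in the same double mutant arrays. Dkc1 read 11.78, 11.81 and 11.77 in wt, 11.74, 11.83 and 11.90 in acd, and 11.70, 11.79 and 11.87 in p53 embryos. In double mutants it read 11.18, 11.45 and 11.84. The first and second of these values lay below all other arrays, and the third lay within the range of the 9 arrays of other genotypes. The difference of double from p53 was -0.30 ± 0.13 (SE, 95% interval -0.59 to -0.01, adjusted p = 0.463), that from acd -0.33 ± 0.13 (adjusted p = 0.377) and that from wt -0.30 ± 0.13 (adjusted p = 0.448). Without p53 loss the acd genotype left Dkc1 at 0.04 ± 0.13 relative to wt, with a 95% interval of -0.25 to 0.33. Among wt embryos the 1 with Y-linked transcripts read 11.78 for Dkc1 on the probe set used, between the others. On the 2 other probe sets of Dkc1 that embryo was the lowest of the wt arrays. It read 11.07 against 11.29 and 11.40 on 1 set, and 10.88 against 11.05 and 10.99 on the other. The 2 other probe sets of Dkc1 gave -0.42 and -0.33 in double against p53, the same sign as the set used.

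Gar1 read 11.00, 11.12 and 11.09 in wt, 11.09, 11.10 and 11.20 in acd, and 11.11, 11.15 and 11.18 in p53 embryos. Its double mutant values were 10.47, 10.75 and 11.07, so that every double mutant array lay below every p53 and acd array, while replicate 3 overlapped the wt arrays. Groups that did not overlap, with the double mutants lower, were found for 1 of 10 members against p53 and for 1 of 10 against acd, Gar1 in each, against 5.01% and 6.9% of all genes. The difference of double from p53 was -0.38 ± 0.12 (SE), a fold of 0.766, with a 95% interval of -0.65 to -0.12 (adjusted p = 0.463). Against acd it was -0.37 ± 0.12 (adjusted p = 0.371) and against wt -0.31 ± 0.12 (adjusted p = 0.447). Gar1 has a single probe set, of the type whose probes can match transcripts of more than 1 gene.

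Nhp2 and Nop10, small proteins that belong to the same particles, differed from Dkc1 and Gar1 in double mutant replicate 1. Nhp2 read 12.20, 12.31 and 12.25 in wt, 12.25, 12.35 and 12.44 in acd, 12.16, 12.26 and 12.36 in p53, and 12.18, 11.89 and 12.34 in double mutant embryos. Here double mutant replicate 2 lay below all other arrays while replicate 1 did not. The Nhp2 difference was -0.12 ± 0.11 in double against p53 (adjusted p = 0.606) and -0.21 ± 0.11 in double against acd (adjusted p = 0.424), and both lay nearer 0 without replicate 2, at 0.00 and -0.09. Nop10 read 12.24, 12.24 and 12.28 in wt, 12.20, 12.25 and 12.26 in acd, and 12.27, 12.33 and 12.36 in p53 embryos. In double mutants it read 12.55, 12.11 and 12.35, so replicate 1 lay above and replicate 2 below all other arrays. The Nop10 difference was 0.02 ± 0.10 in double against p53 (SE, 95% interval -0.19 to 0.23), 0.10 ± 0.10 in double against acd and 0.08 ± 0.10 in double against wt, and none was called. The second probe sets of Nhp2 and Nop10 gave -0.18 and 0.06 in double against p53, with the same signs. The Nhp2 set used is, like that of Gar1, of the type whose probes can match transcripts of more than 1 gene.

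Wrap53 carries telomerase to Cajal bodies, and its gene is the direct neighbour of the p53 gene on chromosome 11 in the RefSeq order of coding genes. Wrap53 read 8.18, 8.32 and 8.05 in wt and 8.19, 7.88 and 8.25 in p53 embryos. Its difference between p53 and wt was -0.08 ± 0.14 (SE, 95% interval -0.38 to 0.22), not called and with overlapping arrays. Acd embryos read 8.07, 8.12 and 8.25 and double mutants 7.88, 7.72 and 8.22, with replicate 2 below all other arrays. The double difference from wt was -0.25 ± 0.14 (adjusted p = 0.478). A second probe set, of a type prone to cross-hybridisation and near the middle of the arrays, had the other sign in p53 against wt, at 0.08, and the same sign in double against wt, at -0.26.

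The 3 CST genes differed in which double mutant arrays stood out. Ctc1, the large subunit, read 8.88, 8.84 and 8.80 in wt, 8.74, 8.83 and 8.65 in acd, 8.89, 8.82 and 8.79 in p53, and 8.26, 8.82 and 8.87 in double mutant embryos. Double mutant replicate 1 alone was low, and without it the difference of double from wt changed from -0.19 ± 0.13 (SE, adjusted p = 0.533) to 0.00. Ctc1 also lies on chromosome 11, with 21 coding genes between it and the p53 gene, and measured -0.01 ± 0.13 in p53 against wt. Its probe set is of the cross-hybridising type, and the 2 others gave -0.30 and -0.07 in double against wt.

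Stn1, the subunit that contacts the primase complex, read 8.46, 8.58 and 8.35 in wt, 8.37, 8.27 and 8.51 in acd, 8.23, 8.11 and 8.49 in p53, and 8.23, 8.04 and 8.29 in double mutant embryos. Its means were ordered wt, acd, p53, double from high to low, with overlap between neighbours, but every double mutant array lay below every wt array. The difference of double from wt was -0.28 ± 0.11 (SE, 95% interval -0.52 to -0.03, adjusted p = 0.448), and that of p53 from wt was -0.18 ± 0.11 and was not called. Without double mutant replicates 1 and 2, replicate 3 alone gave -0.17 against wt. The 2 other probe sets of Stn1 did not pass the filter on low values.

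Ten1, the smallest CST subunit, had the smallest SE of the 10 members. It read 8.52, 8.61 and 8.52 in wt, 8.56, 8.50 and 8.50 in acd, 8.55, 8.70 and 8.59 in p53, and 8.82, 8.61 and 8.53 in double mutant embryos. Only double mutant replicate 1 lay above all other arrays, and the largest Ten1 difference over the comparisons of genotypes was 0.13 ± 0.08 (SE) in double against acd (adjusted p = 0.495).

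Rtel1, whose loss is known to cause telomere shortening and embryonic death in mice, had its genotype means in the same order as Stn1. It read 7.76, 7.88 and 7.73 in wt, 7.68, 7.61 and 7.75 in acd, 7.56, 7.52 and 7.74 in p53, and 7.31, 7.43 and 7.69 in double mutant embryos. Every double mutant array lay below every wt array, as for Stn1, so 2 of 10 members had non-overlapping groups in this direction, against 8.24% of all genes. The difference of double from wt was -0.31 ± 0.10 (SE, 95% interval -0.53 to -0.08, adjusted p = 0.447), and that of p53 from wt was -0.18 ± 0.10 and was not called. This rests on the probe set used: of the 3 others, which lay lower on the arrays, 2 measured 0.01 and -0.02 in double against wt and 1, which did not pass the filter, -0.19. The Rtel1 set used is, like that of Gar1, of the type whose probes can match transcripts of more than 1 gene.

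Double mutant replicates 1 and 2 lay outside the other arrays for most members, and not always for the same ones. They did so for large shares of all genes too. Replicate 2 lay below all 10 arrays other than itself and replicate 1 for 7 of 10 members (24.7% of all genes) and above them for 0 (21.9%). Replicate 1 lay below those 10 arrays for 5 members (33.2% of all genes) and above them for 2 (36%). Dkc1, Gar1 and Rtel1 were below in both. Replicate 3 lay within the range of the 9 arrays of other genotypes for all 10 members, while 12.4% of all genes lay below and 8.77% above that range. The mean of the 10 members relative to wt was -0.30 and -0.24 in replicates 1 and 2 and -0.00 in replicate 3, and between -0.07 and 0.07 in the wt, acd and p53 arrays.

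Without double mutant replicate 3, limma called Dkc1 and Gar1 in double against p53 (-0.47 and -0.54, adjusted p = 0.0111 and 0.00537) and in double against acd (-0.51 and -0.52, adjusted p = 0.00693 and 0.00522). Rtel1 was then called against acd (-0.31, adjusted p = 0.0465), and Dkc1, Gar1 and Rtel1 were called against wt (-0.47, -0.46 and -0.41, adjusted p = 0.0118, 0.0112 and 0.0173). With that array left out 6.19%, 6.53% and 6.07% of all genes were called lower in the 3 comparisons. Without replicates 1 and 2 the members' medians were 0.03, 0.02 and 0.01 against p53, acd and wt, values that describe the remaining double mutant embryo. In that embryo Dkc1 differed from p53 by 0.05 and Gar1 by -0.08.

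**Figure D3:**
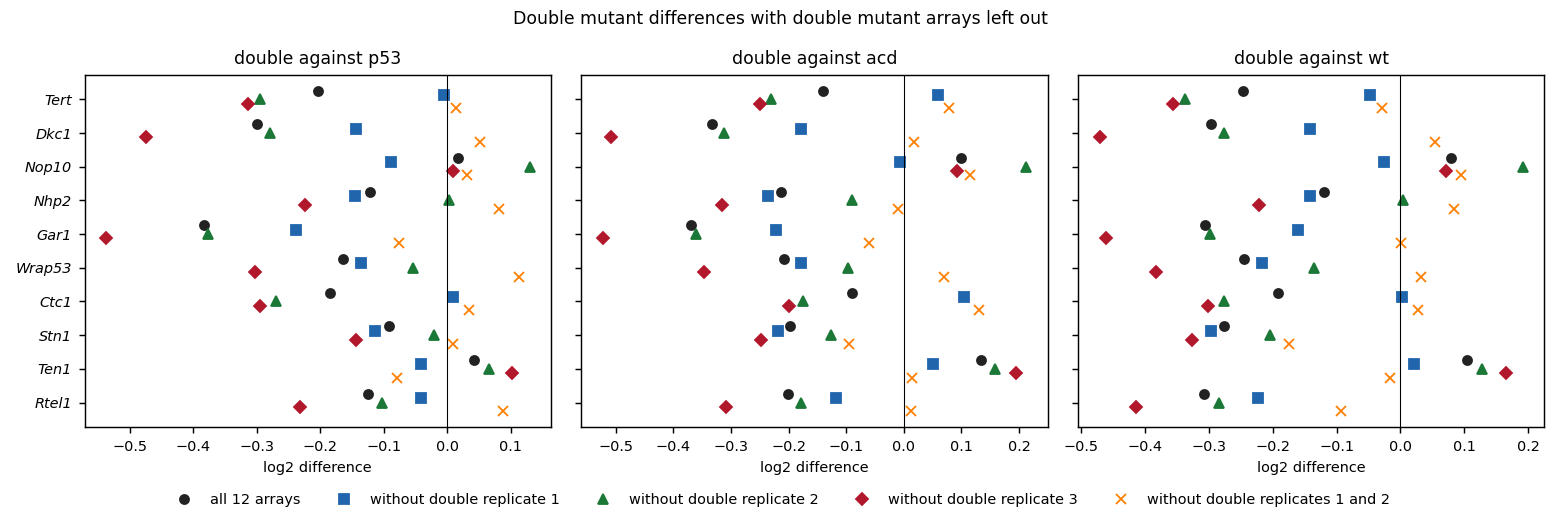
Log2 difference (x axis) of each member (rows) in the 3 comparisons with double mutants, from all 12 arrays and with double mutant arrays left out (symbols). Without replicate 3 the points of Dkc1 and Gar1 move to between -0.54 and -0.46, and without replicates 1 and 2 they lie between -0.08 and 0.05.

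Other transcripts marked out the same 2 arrays. All 7 measured interferon response genes lay above the other 10 arrays in replicates 1 and 2, with list means 4.50 and 4.03 above wt, against 0.27 in replicate 3 and -0.04 to 0.24 in the other genotypes. Of the 7, 4, Ifit1, Ifit3, Irf7 and Oasl2, did not pass the filter, and Usp18 read 3.72 to 3.91 in wt, so these list means set bright values against wt values near the bottom of the arrays and are lower bounds. All 6 macrophage markers, which passed the filter, also lay above the other 10 arrays in both, at 1.39 and 1.04 over wt, against -0.21 in replicate 3 and -0.34 to 0.09 elsewhere. Liver and visceral endoderm markers (4 measured) lay at 2.44, 1.98 and 0.29 in replicates 1 to 3 and at -0.29 to 1.47 elsewhere. Of 6 proliferation genes 6 lay below the other 10 arrays in replicate 1 and 4 in replicate 2, with means of -0.44 and -0.08. In replicate 2, 1 of the 6, Mki67, lay above those 10 arrays, at 12.16. Of all tested genes, 33.2% lay below and 36% above those 10 arrays in replicate 1, and 24.7% and 21.9% in replicate 2. The part of these transcripts in the members' differences was not tested.

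Whether the effect of acd depends on p53 was tested by the interaction: the double minus p53 value with the acd minus wt value taken away. No member passed limma (adjusted p 0.879 to 0.988), as no gene did (0% of 13501). Gar1 had an interaction of -0.45 ± 0.17 (SE, 95% interval -0.82 to -0.07) and an unadjusted p of 0.0241, the only member under 0.05, where 3.93% of all genes were under it, 1.47% lower and 2.46% higher. Interactions were below 0 for 8 of 10 members and for 51% of all genes. Dkc1 followed at -0.34 ± 0.19 (adjusted p = 0.879). Without double mutant replicate 3 the Gar1 interaction was -0.60 and passed (adjusted p = 0.0285), as 1 of 440 genes called (3.26% of 13482, with 0.727% called lower). The other 8 members had interactions between -0.22 and 0.07. This contrast partly follows sex, as 1 wt, 1 double mutant, 3 acd and 3 p53 embryos had the Y-linked transcript. With a term for sex, estimated within wt and double mutants alone, 7 of 10 members had interactions below 0. Their median was then -0.22, against -0.09 in the main fit, and 0 members were called (0.00741% of all genes).

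Across the 12 arrays the members formed loose groups, described here without a test because the points share genotypes and the 2 arrays that stood apart. Over 45 pairs the median Pearson correlation was 0.46, and 0.17 over the 10 arrays left without double mutant replicates 1 and 2. Pairs above 0.7 numbered 13 over 12 arrays and 4 over 10 arrays. Dkc1 and Gar1 correlated at 0.97 over 12 arrays and at 0.53 over 10, while Dkc1 and Nhp2 correlated at 0.67 and 0.93. Stn1 and Rtel1 correlated at 0.84 and 0.94, Wrap53 and Stn1 at 0.85 and 0.77, and Wrap53 and Rtel1 at 0.82 and 0.70. Nop10 and Dkc1 correlated at -0.36 over 12 arrays and at 0.41 over 10.

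**Figure D4:**
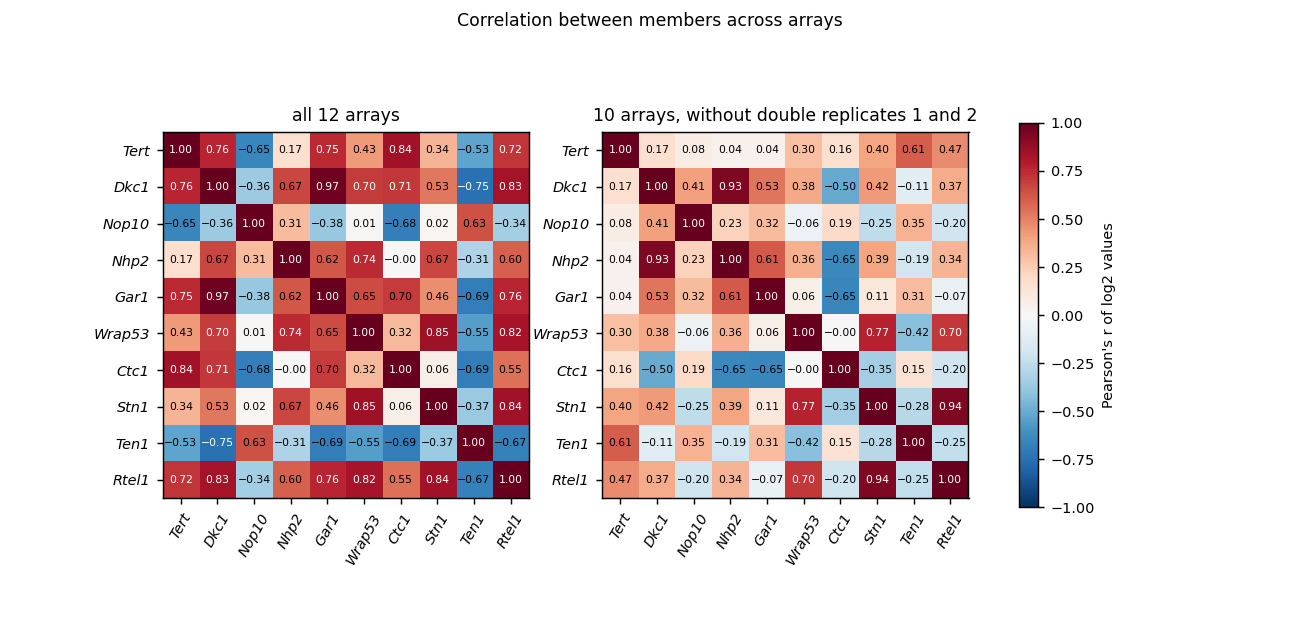
Pearson correlation (colour and printed value) of the log2 values of each pair of members over 12 arrays (left) and over the 10 arrays without double mutant replicates 1 and 2 (right). Most high values of the left panel are lower in the right panel, while Stn1 with Rtel1 and Dkc1 with Nhp2 are higher there, at 0.94 and 0.93.

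Genes with the most similar pattern over the 12 arrays were found for each member, and each is given with its correlation over 12 arrays and then over the 10. Lyar, which encodes a nucleolar protein, was most like Dkc1 (0.99 and 0.89), followed by Haus6 of the spindle augmin complex (0.99 and 0.93). Apba3 (0.99 and 0.84) and Anp32e, a histone chaperone (0.98 and 0.90), were most like Gar1. For Nhp2 they were Tma16 (0.98 and 0.96) and Ccdc58 (0.97 and 0.92), and for Nop10 Commd1 (0.96 and 0.80) and the ribosomal protein gene Rpl27 (0.95 and 0.79). Tert was closest to Mysm1 (0.96 and 0.82) and Sos2 (0.95 and 0.87), and Wrap53 to Fam53a (0.98 and 0.97) and Nif3l1 (0.95 and 0.91). Ctc1 was closest to the fatty acid synthase gene Fasn (0.99 and 0.95) and Ralgps2 (0.99 and 0.92), Stn1 to Adssl1 (0.94 and 0.95) and Asph (0.93 and 0.94), and Ten1 to Tm2d1 (0.97 and 0.94) and Dynlt1f (0.95 and 0.87). Rtel1 was closest to Smyd5 (0.96 and 0.94) and to Eme1, which encodes a partner of the Mus81 nuclease (0.95 and 0.90).

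Genes around the members were read from lists. Of 14 measured genes of telomerase assembly and RNA maturation, 14 were lower in double against wt, 14 in double against acd and 13 in double against p53, with medians of -0.22, -0.23 and -0.20, and 0 passed in any of these. Nolc1, a chaperone of H/ACA particles, measured -0.69 ± 0.22 in double against acd (SE, adjusted p = 0.371), Pinx1, a telomerase inhibitor, -0.30 ± 0.10 and Parn, which trims the telomerase RNA, -0.20 ± 0.10. The assembly list lay at -0.41, -0.28 and 0.01 in double mutant replicates 1 to 3. Its medians in acd against wt and p53 against wt were 0.01 and -0.01. The 13 genes of CST partners and end processing had a median of -0.19 in double against wt with 11 lower, among them Dclre1b, the telomeric nuclease Apollo, at -0.29 ± 0.11, Blm at -0.30 and Rpa1 at -0.20.

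Among the 7 shelterin genes Acd alone passed, at 0.603 of wt in acd embryos (log2 -0.73 ± 0.08, adjusted p = 0.0113) and 0.646 of wt in double mutants (adjusted p = 0.0492). Its change in acd against wt lay between -0.75 and -0.71 with any of the 12 arrays left out, and passed in 6 of these 12 fits (adjusted p 0.00513 to 0.13), the call being lost without any single wt or acd replicate. A term for sex (adjusted p = 0.0645) or the replicate block (0.0883) removed it too. That in double against wt lay between -0.67 and -0.57 and passed in 3 of 12 (adjusted p 0.00259 to 0.435), those without p53 replicate 3 or double mutant replicates 1 or 3. This call was lost as well with the replicate block (adjusted p = 0.202), sex as a term (0.0748), no filter (0.0545), median centring (0.0701), quantile normalization of the tested genes (0.084) and only the compared arrays (0.774), and its log2 difference stayed between -0.63 and -0.60 in these 6 fits. Terf2ip, which encodes Rap1, measured -0.20 ± 0.08 in double against acd and Terf1 0.20 ± 0.10 in acd against wt. The shelterin median was -0.11 in double against wt. Other telomere genes (10 measured) had a median of -0.16 in that comparison with 8 lower, led by Smg5 at -0.30, Smg6 at -0.29 and Tnks at -0.28. Transcription factors known to act on Tert (9 measured) had a median of -0.17 with 6 lower. Of these Klf4 measured 0.36 ± 0.20, E2f1 -0.17 ± 0.08 and Max -0.08 ± 0.10. Of the 6 p53 target genes given for reference 6 were lower in double against acd (median -0.49), with Ccng1 at -1.19 ± 0.39, Phlda3 at -0.68 ± 0.20 and Bbc3 at -0.25 ± 0.08, and 0 passed (adjusted p = 0.371 for each of the 3). The 3 acd embryos differed in Ccng1, at 8.34, 10.16 and 10.34, where p53 embryos read 8.32 to 8.54 and wt embryos 8.75 to 9.26. In the same 3 acd arrays the mean of the 10 telomerase and CST genes was -0.06, -0.05 and 0.02 relative to wt, and no member was called in acd against wt without replicate 1.

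**Figure D5:**
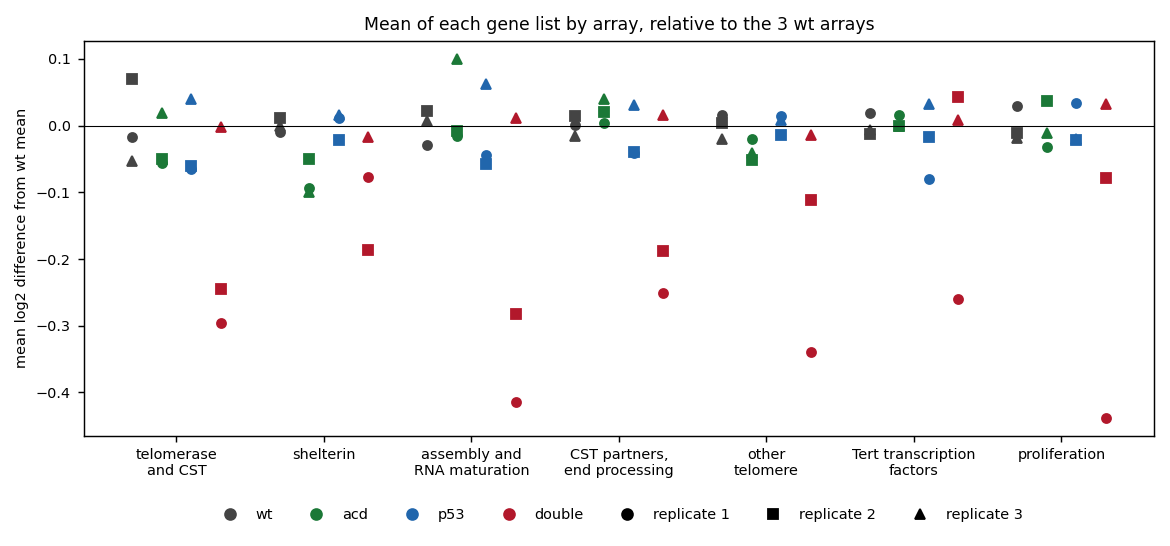
Mean log2 difference from the wt mean (y axis) of the 10 members and of 6 other gene lists (x axis) in each array, coloured by genotype with symbols for replicates. Double mutant replicates 1 and 2 lie lowest for the members (-0.30 and -0.24) and for the assembly list (-0.41 and -0.28), and replicate 3 lies near 0 in both.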

How the data were processed

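RNA of 12 whole embryos was measured on Affymetrix expression arrays, 1 array per embryo, and groups and replicate numbers were taken from the sample titles, which call the replicates biological. Per the series' design text, the authors made the deposited log2 expression values with justRMA and used BRB-ArrayTools 4.4.0 for gene selection. Quantile normalization, part of RMA, evens out the arrays and hides any difference in total RNA.

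The platform annotation gave 1 symbol to 34945 of 45101 probe sets and several to 932. A RefSeq table (GRCm38.p6) joined on gene identifier changed 0 symbols. Genes entered the test when the probe set with the highest mean exceeded the 40th percentile of 3 or more arrays. With limma 3.58.1 (R 4.3.3), lmFit estimated the 4 genotype means from the 12 arrays, leaving 8 residual degrees of freedom, and eBayes gave two-sided p-values, which were adjusted by Benjamini-Hochberg over 13501 genes. The fit was tested on simulated data. The number of embryos limits the precision. Genes named are the 10 members, the 2 genes most correlated with each, and up to 3 genes of each list with the smallest p, beside markers named where their list is described. The members and lists were chosen with earlier results of these data known. List genes without a single-symbol probe set in the annotation used were not analysed here. Alternatives were a replicate block, other filters, probe set rules, scalings, variance models, array weights, thresholds, subsets of arrays and a term for sex, read from the Y-linked transcript Eif2s3y.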

Additional observations from a re-analysis of the deposited data

How the results depend on the processing

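The number of members called was recomputed under 25 other settings, giving 149 counts over the 6 comparisons, of which 143 stayed at 0. Array quality weights called 3 members in double against acd (Dkc1, Nhp2 and Gar1), with 1774 genes (13.1% of all tested) called in place of 0. They called 6 in double against wt (Dkc1, Nhp2, Gar1, Wrap53, Stn1 and Rtel1), with 1805 genes (13.4%) called in place of 2. In double against p53 they called 0 members, and 122 genes (0.904%) in place of 1. Those weights were 0.068, 1.61 and 0.246 for double mutant replicates 1 to 3, so that replicate 2 carried most of the double mutant mean. With an array left out in turn the count ran from 0 to 2 in double against p53, 0 to 3 in double against acd, 0 to 3 in double against wt and 0 to 1 in the interaction. The counts above 0 came from leaving out double mutant replicate 3, which called 1755, 1875, 1646 and 440 genes (13%, 13.9%, 12.2% and 3.26% of all tested). In acd against wt and p53 against wt the count stayed at 0 in every setting run. Of the 1484 values of single members, 18 passed the threshold under a setting, 70 moved by at least 1 SD and 87 changed sign, none of them a called value. With sex as a term Dkc1 measured -0.46 and Gar1 -0.56 in double against p53 and neither passed (adjusted p = 0.0921 and 0.0896). That term is estimated within wt and double mutants alone. In double against wt 8 members stayed lower after centring arrays on their medians and after quantile normalization of the tested genes. RMA had already evened out the arrays, so these settings are no separate check of scaling. In acd against wt 7 members were lower in the main fit, 4 with the mean of all probe sets and 8 without acd replicate 3. With sex as a term, or without wt replicate 2, 5 were. The 60th percentile filter left out Tert. With the replicate block 0 members passed in any comparison, with an adjusted p of 0.425 for Gar1 in double against p53. Same-numbered arrays did not deviate together in every pair (correlations -0.23 to 0.39 over 18 pairs, 5 of 12 arrays closest to their own number), so the numbers are not taken as pairs.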
